A study of Mus musculus with 4 samples.

Results

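The 10 genes described here encode the transcription factors that mark the progenitor domains of the ventral hindbrain: Olig1, Olig2, Nkx2-2, Nkx2-9, Nkx6-1, Nkx6-2, Foxa2, Pax6, Dbx1 and Dbx2. They were chosen by name, and what was measured at them is the DNA contact of another factor, NR2F1 (COUP-TF1), by single-cell CUT&Tag. The assay tethers the transposase Tn5 to an antibody that recognises NR2F1. Tn5 then cuts neighbouring DNA, and the signal is the number of cut sites with a given cell's barcode. Peaks of all libraries were merged where they overlapped by at least 1 bp, and every merged region inside the gene body or within 20 kb of it was taken as a region of that gene, which gave 124 of 263639 regions. The values are NR2F1 signal at these genes and not their expression.

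The cells came from mouse embryos at embryonic day 10.5. WT embryos and embryos homozygous for the Fam5 single-nucleotide knock-in (Fam5snv/snv), a base change in a conserved element near Gata2, both carried the Isl1MN-GFP reporter of motor neurons. Each genotype had 2 libraries. Each WT library pooled 26 embryos, Fam5snv/snv replicate 1 pooled 8 and Fam5snv/snv replicate 2 pooled 16. Tissue of rhombomere 4 (r4) and motor neurons migrating from it were dissected and sorted for GFP. The study's sorting methods describe opening the gate to cells without GFP at the end of the sort. Its account of the CUT&Tag names GFP-positive cells, and whether the gate was opened for these libraries is not settled. Progenitors and other cell types may be included. Which barcodes were progenitors was not determined, and fewer cells of a type cannot be told apart from less signal per cell.

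In the ventral neural tube, Sonic hedgehog from the notochord and floor plate divides progenitors into domains. Class II factors (Olig2, Nkx2-2, Nkx2-9, Nkx6-1, Nkx6-2) are induced by the signal, class I factors (Pax6, Dbx1, Dbx2) are repressed by it, and pairs of them repress each other so that borders become sharp. Foxa2 marks the floor plate. Nkx2-2 and Nkx2-9 mark the p3 domain, which in the hindbrain gives rise to branchial and visceral motor neurons such as those of the facial nerve, Olig2 marks the domain of somatic motor neurons, and Dbx1 and Dbx2 mark interneuron progenitors farther from the floor plate. Olig1, a neighbour of Olig2, and Foxa2 are counted here with the class II factors, since both are induced by Sonic hedgehog.

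The libraries differed in depth and in how much of the genome was called as peaks. They held 3083946 and 3580517 cut sites in WT and 8967987 and 10341894 in Fam5snv/snv, in 42168 to 170993 peaks, with 1377 to 2740 barcodes and medians of 879 to 2984 cut sites per barcode. WT replicate 1 had the fewest peaks, and log2 signal over tested regions correlated less between the WT libraries (Pearson's r = 0.737 across regions) than between the Fam5snv/snv libraries (0.919) or between genotypes (0.774 to 0.826). A library has counts only inside its own peaks, so a longer called peak also counts more DNA. Library pairs shared 3 to 12 barcodes. The promoter regions of the motor neuron genes Isl1, Isl2, Phox2a and Tbx20 had mean signal of 29.4 to 105 CPM.

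Of the 124 regions, 67 had a peak in 1 library, 9 in 2, 23 in 3 and 25 in all of them. WT replicate 1 had a peak in 25 of the regions, WT replicate 2 in 73, and the Fam5snv/snv libraries in 72 and 84. Over all 263639 regions the shares with a peak were 14.2% and 53.9% in WT and 49.3% and 63.7% in Fam5snv/snv. Of those 263639 regions, 35809 had a peak in every library. In all 23 regions with a peak in 3 libraries, the library without one was WT replicate 1. The 25 regions called in every library all passed the minimum of 10 cut sites in 2 or more libraries and were tested. They held 100% of the cut sites of WT replicate 1 at these genes and 80.2%, 83.0% and 80.9% of those of WT replicate 2 and of Fam5snv/snv replicates 1 and 2. Passing depended on a peak in WT replicate 1, so the 25 regions are not a sample of all 124. By position, 10 of them were promoter regions (overlapping 1 kb on either side of the start of a protein-coding transcript), 4 lay in a gene body and 11 lay outside the gene. Of the 99 untested regions, 4 were promoter regions, 8 lay in a gene body and 87 outside the gene.

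**Figure D1:**
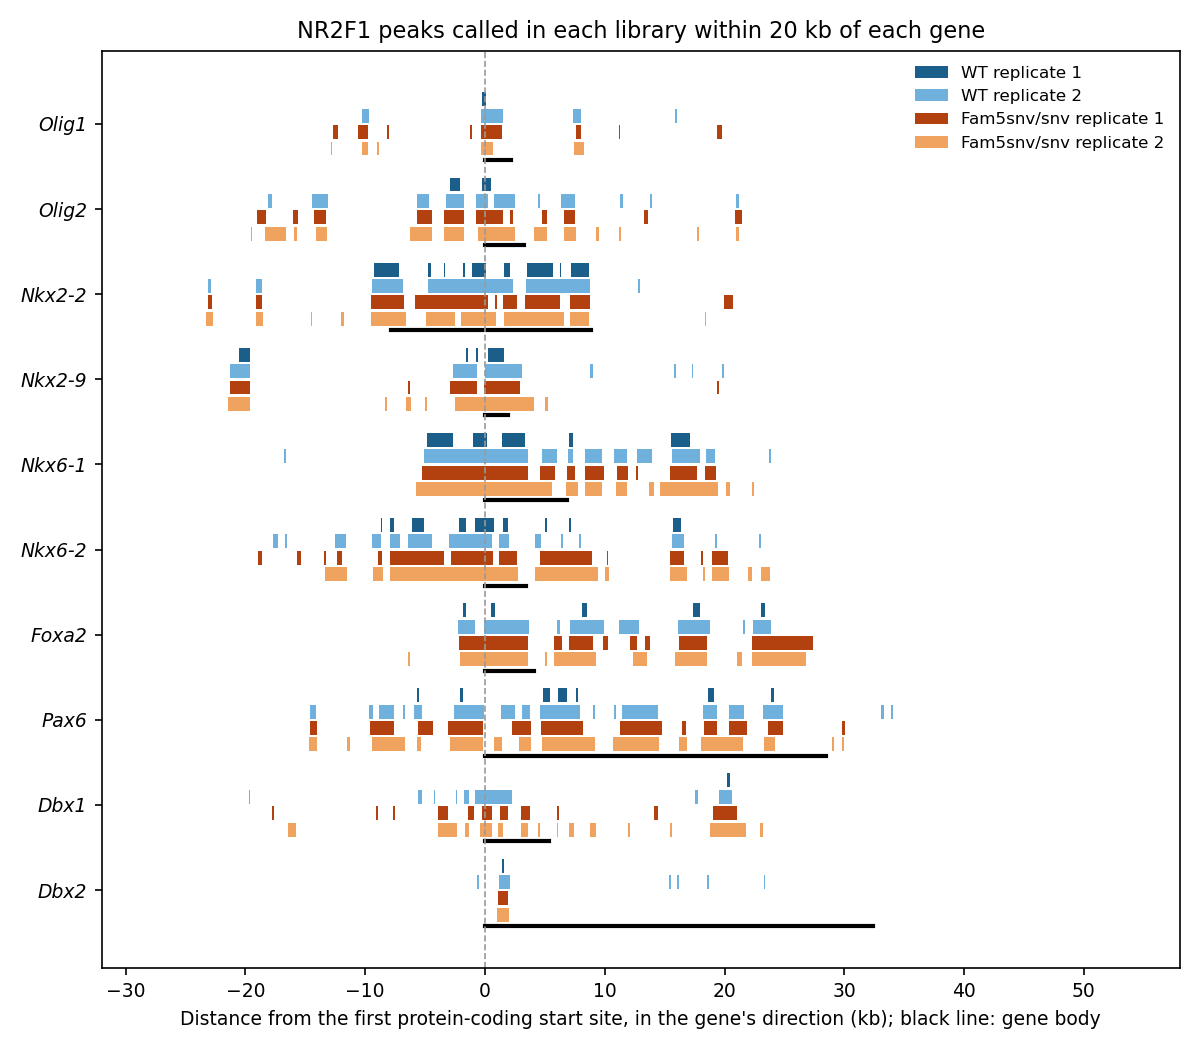
Called NR2F1 peaks (bars) in each of the 4 libraries within the gene body and 20 kb on either side of the 10 genes, by distance in kb from the first protein-coding start site in the direction of the gene. Every library has several kb of peaks at Nkx2-2, Nkx6-1 and Nkx6-2, but WT replicate 1 has less called length there too. In the Nkx6-1 promoter region it has 5254 bp, against 9952 to 11400 bp in the other libraries. At the other genes WT replicate 1 also has shorter or fewer peaks. Downstream of Nkx6-2 the Fam5snv/snv libraries have longer peaks than the WT libraries.

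The genes differed widely in NR2F1 signal per length. Signal is given as CPM, the cut sites of a region or window scaled to the normalized total of its library. That total is taken over tested regions for regions and over gene windows for windows, so their CPM values differ in scale. Over the whole gene window, the sum of all regions divided by window length, Nkx6-1 had a mean of 2.49 CPM per kb and Dbx2 0.0312, against a median of 0.491 over 17981 protein-coding genes. Nkx6-1, which defines the domains of motor neurons and ventral interneurons, had 2.43 and 2.48 in WT and 2.45 and 2.58 in Fam5snv/snv, above every library's value of every other member. It stood at the 93.9th percentile of genes on this scale. Nkx6-2, its close relative, followed with 1.59 and 1.40 in WT and 2.13 and 2.24 in Fam5snv/snv, and Nkx2-2 with 1.57 and 1.39 in WT and 1.32 and 1.19 in Fam5snv/snv. The ranges of Nkx6-2 and Nkx2-2 overlapped, as did those of Nkx2-2 and Foxa2.

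Foxa2 had 0.612 and 1.61 CPM per kb in WT and 1.64 and 1.25 in Fam5snv/snv, and Pax6 had 0.466 and 1.27 in WT and 1.22 and 1.03 in Fam5snv/snv. Nkx2-9 varied less, with 0.733 and 0.821 in WT and 0.782 and 0.921 in Fam5snv/snv. Olig2 had 0.367 and 0.895 in WT and 0.846 and 0.786 in Fam5snv/snv. These last 4 genes overlapped one another, and in 3 of them (Foxa2, Pax6, Olig2) WT replicate 1 stood well below the other libraries. Means below the median of all genes were those of Dbx1 with 0.0345 and 0.440 in WT and 0.398 and 0.499 in Fam5snv/snv, Olig1 with 0.0696 and 0.295 in WT and 0.358 and 0.177 in Fam5snv/snv, and Dbx2 with 0 and 0.0612 in WT and 0.0341 and 0.0296 in Fam5snv/snv. Dbx1 overlapped Olig1 and Olig2, and every value of Dbx2 lay below every value of Olig1.

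Summed by class and divided by summed window length, the 7 class II genes had 1.09 and 1.30 CPM per kb in WT and 1.38 and 1.32 in Fam5snv/snv, and the 3 class I genes had 0.180 and 0.599 in WT and 0.558 and 0.513 in Fam5snv/snv. The ratio of class II to class I within a library was 6.09 and 2.16 in WT and 2.47 and 2.58 in Fam5snv/snv. Class II was above class I in all 4 libraries, and the ratio of WT replicate 1 stood apart from the other 3. The class I sum was mostly Pax6, and the higher level was not shared by every class II gene. The mean was 0.998 CPM per kb at Pax6, against 0.814 at Nkx2-9, 0.723 at Olig2 and 0.225 at Olig1. Foxa2, Nkx2-2, Nkx6-2 and Nkx6-1 had means of 1.28 to 2.49. In WT replicate 1 Nkx2-9 was above Pax6 (0.733 against 0.466).

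In CPM summed over the region, 3 promoter regions varied least between libraries, the highest library being at most 1.26 times the lowest. On the CPM scale, which is not per length and is compared here between libraries of 1 region, the Nkx6-2 promoter region (chr7:139580065-139590750 of mm10, over the start site and most of the gene) had 101 and 94.3 in WT and 99.5 and 97.4 in Fam5snv/snv, so that the highest library was 1.07 times the lowest. The Nkx6-1 promoter region (chr5:101658939-101670788, over the start site and most of the gene) had 165 and 177 in WT and 163 and 169 in Fam5snv/snv, a ratio of 1.09. The Nkx2-2 promoter region (chr2:147177619-147192209, over coding and untranslated exons of Nkx2-2 and part of the antisense transcript Nkx2-2os) had 121 and 121 in WT and 110 and 96.1 in Fam5snv/snv, a ratio of 1.26. Both Fam5snv/snv libraries lay below both WT libraries at Nkx2-2, while the genotypes overlapped at Nkx6-1 and Nkx6-2.

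The other promoter regions varied more between libraries. Pax6, the class I factor that opposes Nkx2-2 at the p3 border, had 34.3 and 50.3 in WT and 51.7 and 41.9 in Fam5snv/snv over a start site within the gene (chr2:105673514-105678103). Nkx2-9 (chr12:56609192-56616179, over the whole gene) had 26.6 and 46.4 in WT and 39.4 and 47.8 in Fam5snv/snv. Foxa2 (chr2:148043290-148049198) had 9.81 and 47.8 in WT and 39.0 and 31.6 in Fam5snv/snv, and its ratio of highest to lowest library, 4.88, was the largest among the 8 promoter regions with cut sites in every library. At all 3 the WT values bracketed or overlapped the Fam5snv/snv values.

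Olig2 (chr16:91224709-91228001) had 14.0 and 28.5 in WT and 20.8 and 20.6 in Fam5snv/snv, and Olig1 (chr16:91269413-91271245) had 5.25 and 13.4 in WT and 16.8 and 7.33 in Fam5snv/snv. At Dbx2 (chr15:95653876-95654984, over coding sequence and UTR near the start) the values were 0 and 6.68 in WT and 4.65 and 4.17 in Fam5snv/snv, where WT replicate 1 had a peak of 57 bp with no cut site. The promoter region of Dbx1 (chr7:49634580-49637657) had no peak in WT replicate 1 and was not tested, with 0 and 21.1 in WT and 7.38 and 8.22 in Fam5snv/snv. WT replicate 1 was the lowest library at 6 of the 9 tested promoter regions that stand for 1 gene each, and the genotypes overlapped at every promoter region of this group. Per kb of called peak the order turned, and WT replicate 1 was the highest library in 23 of the 25 tested regions, with a median of 19.2 CPM per kb of peak against 9.34, 8.29 and 7.19 in WT replicate 2 and Fam5snv/snv replicates 1 and 2.

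**Figure D2:**
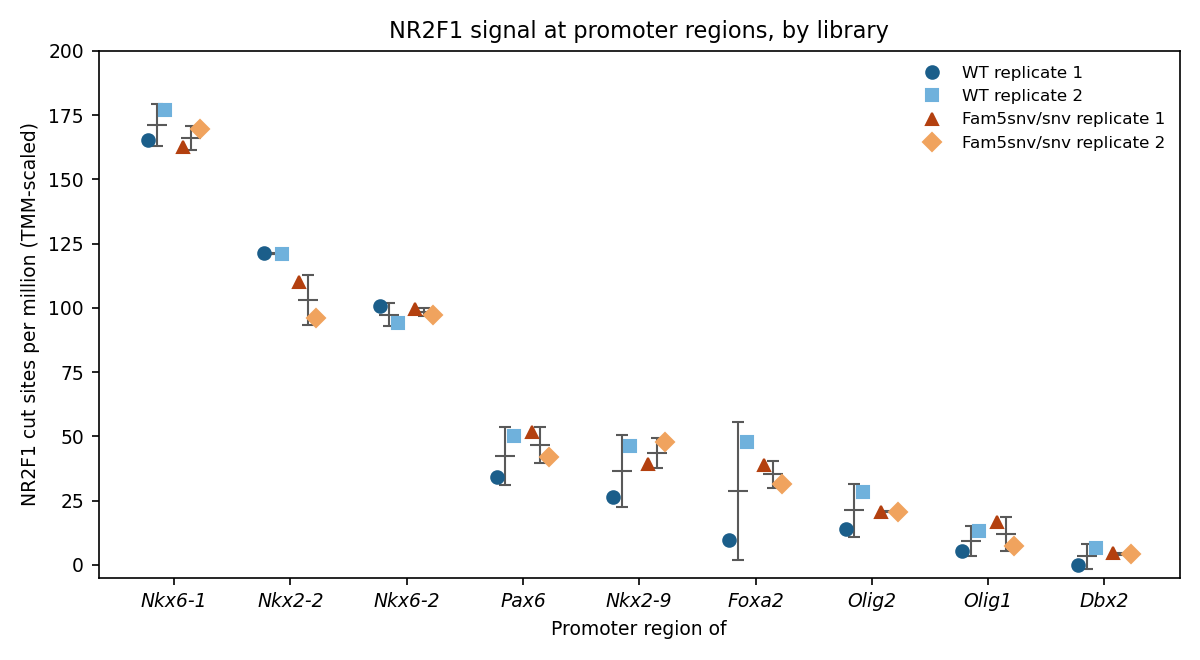
NR2F1 CPM in the promoter region of 9 genes, 1 symbol per library, with the mean and SD of the 2 libraries of each genotype in grey. The regions differ in length, so heights are compared within a gene: the 4 libraries lie close together at Nkx6-1 and Nkx6-2, and WT replicate 1 is low at Foxa2 (9.81 against 31.6 to 47.8).

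The sequence under the signal was read from the reference genome (GRCm38, the build mm10, plus strand) for the regions of highest signal per kb and for those that hold the COUP-TF core. NR2F1 and related nuclear receptors bind repeats of the core AGGTCA. Windows of 300 bases were placed on the middle of the longest stretch called in all 4 libraries, which 23 of the 25 tested regions have, and both strands were searched. Of these 23 windows 1 held the core (4.35%), against 27.2% of the windows of all 34989 tested regions with such a stretch, and of 10 promoter windows 0 held it, against 13.1% of 12551. The direct repeat of the core with 1 base of any kind between the copies, which contains the core, was in 0 of the 23 windows and in 0.732% of all. The member windows had a median GC content of 57.0%, against 54.3% over all windows. The window with the core lies downstream of Foxa2 in the noncoding gene 9030622O22Rik, the Nkx6-1 window lies upstream of the start site, and the following 4 windows are shown, with the core in capitals where present.
Nkx6-1 promoter region, chr5:101668571-101668870: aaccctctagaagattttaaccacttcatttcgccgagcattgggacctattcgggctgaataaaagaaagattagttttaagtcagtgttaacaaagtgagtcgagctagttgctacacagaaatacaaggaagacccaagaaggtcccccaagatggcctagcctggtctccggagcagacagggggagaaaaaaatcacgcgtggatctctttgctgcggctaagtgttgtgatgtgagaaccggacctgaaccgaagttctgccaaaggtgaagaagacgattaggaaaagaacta
Nkx6-2 downstream region, chr7:139566595-139566894: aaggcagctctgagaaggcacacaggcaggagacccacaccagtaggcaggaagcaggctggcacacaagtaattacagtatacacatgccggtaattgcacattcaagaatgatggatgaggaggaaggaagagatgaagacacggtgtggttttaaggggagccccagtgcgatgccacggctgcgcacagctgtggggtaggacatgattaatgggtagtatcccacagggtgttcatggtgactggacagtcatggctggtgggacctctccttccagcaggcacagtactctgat
Nkx2-9 upstream region, chr12:56633203-56633502: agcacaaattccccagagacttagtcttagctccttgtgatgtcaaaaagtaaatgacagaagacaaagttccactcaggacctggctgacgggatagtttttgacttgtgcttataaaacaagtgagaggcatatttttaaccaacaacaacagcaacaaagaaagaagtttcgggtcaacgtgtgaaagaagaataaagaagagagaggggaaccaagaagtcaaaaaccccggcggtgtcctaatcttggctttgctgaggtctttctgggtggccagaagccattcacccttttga
Foxa2 downstream region, chr2:148029191-148029490: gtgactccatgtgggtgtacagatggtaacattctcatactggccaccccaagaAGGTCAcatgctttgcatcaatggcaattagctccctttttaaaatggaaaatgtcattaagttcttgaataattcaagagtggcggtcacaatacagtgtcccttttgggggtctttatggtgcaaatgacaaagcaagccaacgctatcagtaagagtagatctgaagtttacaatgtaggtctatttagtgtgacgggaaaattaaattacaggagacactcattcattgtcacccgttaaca

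The core was present elsewhere in the same regions. Over their whole length, 23 of the 25 tested regions held 66 matches to AGGTCA, 0.621 per kb against 0.828 per kb over all 35770 tested regions, and 14 of the 66 lay in a stretch called in all 4 libraries, in 8 regions. Of those 14, the Nkx6-1 promoter region held 4, the most of any member region. Its matches are shown with 20 bases on either side, on the plus strand, where TGACCT is the core on the minus strand.
Nkx6-1 match at chr5:101661836-101661841: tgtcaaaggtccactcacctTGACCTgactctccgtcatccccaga
Nkx6-1 match at chr5:101663018-101663023: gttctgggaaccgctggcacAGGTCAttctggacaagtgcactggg
Nkx6-1 match at chr5:101667769-101667774: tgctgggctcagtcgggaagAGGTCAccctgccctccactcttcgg
Nkx6-1 match at chr5:101668261-101668266: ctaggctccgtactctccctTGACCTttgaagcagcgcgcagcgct
The GLI factors that carry the Sonic hedgehog signal bind GACCACCCA. This sequence was in 4 of the tested member regions, 0.0376 matches per kb against 0.0110 over all tested regions, at Nkx2-2, Nkx2-9, Nkx6-2 (downstream) and Foxa2 (downstream), and none of the 4 lay in a stretch called in all libraries. The matches at the class II factors of the p3 domain are shown, with GACCACCCA on the minus strand.
Nkx2-2 match at chr2:147188251-147188259: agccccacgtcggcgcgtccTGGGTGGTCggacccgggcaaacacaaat
Nkx2-9 match at chr12:56614641-56614649: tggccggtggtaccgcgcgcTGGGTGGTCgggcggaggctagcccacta
A match is a run of letters, and whether a factor binds there was not tested.

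RefSeq promoters (250 bases before to 50 after the start, GRCm38.p6) were given for 9 of the 10 genes, all but Olig1, 12 promoters in all, and 0 of them held the core against 16.3% of 32851 RefSeq promoters. Their median ratio of observed to expected CpG was 0.733, against 0.384 over all promoters. The Nkx6-2 promoter lies in the stretch with signal in all 4 libraries, and the 250 bases before its start are shown in the direction of the gene (chr7:139582798-139583047, minus strand).
Nkx6-2 promoter: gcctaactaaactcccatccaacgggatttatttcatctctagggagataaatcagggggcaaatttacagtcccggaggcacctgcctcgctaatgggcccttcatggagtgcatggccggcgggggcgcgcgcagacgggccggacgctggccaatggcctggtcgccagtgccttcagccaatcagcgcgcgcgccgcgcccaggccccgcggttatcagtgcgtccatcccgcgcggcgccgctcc

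The comparison of the genotypes asks whether NR2F1 signal at these genes differs in Fam5snv/snv embryos. No tested region of any member passed the adjusted threshold of 0.05 (edgeR quasi-likelihood test over 35770 regions), where the share called over all regions was also 0%. The smallest adjusted p of a member region was 0.573. At an unadjusted p under 0.05, 2 of the 25 regions were higher in Fam5snv/snv, against 5.29% of all tested regions, and 0 were lower, against 3.37%. DESeq2, run as an alternative, called 366 regions higher and 194 lower over all regions, and 1 of them was a member region. Both Fam5snv/snv libraries lay above both WT libraries in 5 of the 25 regions, against 23.2% of all, and below them in 3, against 21.4%. The median log2 fold change was 0.20 over the 25 member regions and 0.02 over all tested regions. With 2 libraries against 2, an exact permutation test of a single value cannot give a two-sided p below 0.333.

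Among the promoter regions, edgeR gave log2 fold changes (Fam5snv/snv minus WT) from −0.23 at Nkx2-2 to 0.40 at Dbx2, with adjusted p from 0.720 to 0.986. The median over all tested promoter regions was −0.21, near the value at Nkx2-2. For Nkx6-2 the fold change was 0.02 (SE 0.19, 95% interval −0.44 to 0.48), for Nkx6-1 it was −0.04 (SE 0.21, −0.53 to 0.44) and for Nkx2-2 it was −0.23 (SE 0.20, −0.71 to 0.24). These 3 intervals were the narrowest of the promoter regions. For Foxa2 (0.29, SE 0.59, interval −1.11 to 1.69) and Dbx2 (0.40, SE 1.34, interval −2.76 to 3.56) the intervals were wide. The direction at Foxa2, Pax6, Nkx2-9, Olig1 and Dbx2 turned when WT replicate 1 was left out, with −0.45 at Foxa2, −0.11 at Pax6, −0.10 at Nkx2-9, −0.16 at Olig1 and −0.61 at Dbx2, and without that library the median over the 25 member regions was −0.10. Without WT replicate 2, edgeR gave 1.84 at Foxa2 (adjusted p = 0.00156), the median was 0.71, and 8 member regions were called among 6315 of all regions. In each of these fits the 1 WT library left is assumed to vary like the Fam5snv/snv libraries.

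**Figure D3:**
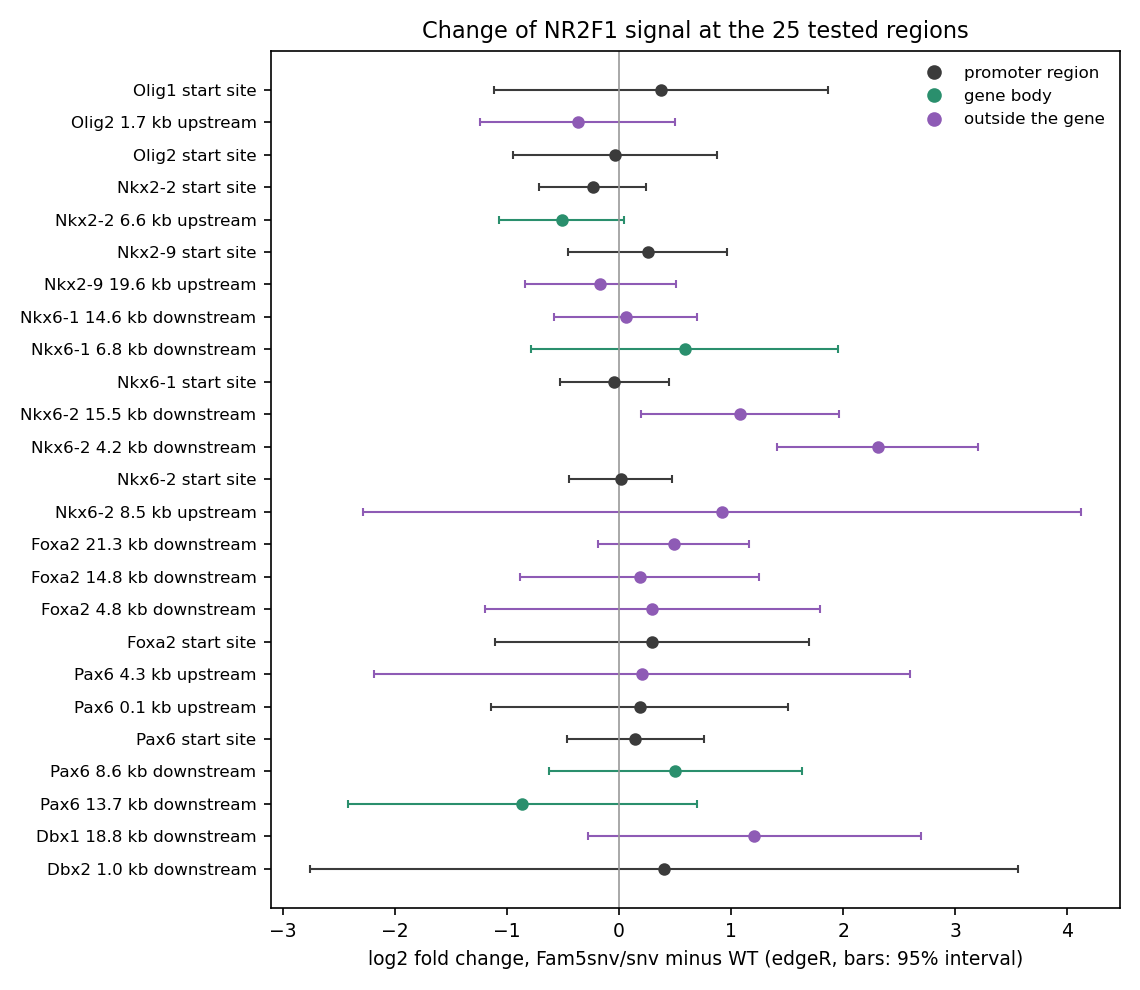
Log2 fold change of NR2F1 signal (Fam5snv/snv minus WT, edgeR) with its 95% interval at the 25 tested regions of the 10 genes, coloured by position and named by distance from the nearest protein-coding start site. The intervals of 23 regions include 0, and the 2 that do not are both downstream of Nkx6-2.

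The 2 regions at an unadjusted p under 0.05 both lie downstream of Nkx6-2, within Inpp5a, a gene for an inositol phosphatase that runs into the Nkx6-2 window. The nearer one (chr7:139573351-139578601, starting 4189 bp from the Nkx6-2 start site) had 8.06 and 4.57 CPM in WT and 31.6 and 31.1 in Fam5snv/snv, from 23, 13, 231 and 246 cut sites. Both Fam5snv/snv libraries were far above both WT libraries, with a log2 fold change of 2.31 (SE 0.38, 95% interval 1.41 to 3.20, edgeR adjusted p = 0.573, DESeq2 adjusted p = 6.36e-05). The called peaks there measured 419 and 591 bp in WT and 4361 and 5249 bp in Fam5snv/snv, and no stretch was called in all 4 libraries. Per kb of called peak the values were 19.2 and 7.74 in WT and 7.24 and 5.93 in Fam5snv/snv, so that the Fam5snv/snv libraries were not higher on that scale.

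The farther one (chr7:139565924-139567330, 15460 bp from the start site, whose central window is printed above) had 14.7 and 8.44 in WT and 25.02 and 23.90 in Fam5snv/snv, from 42, 24, 183 and 189 cut sites. The log2 fold change was 1.08 (SE 0.37, interval 0.19 to 1.96, edgeR adjusted p = 0.573). Per kb of called peak this region had 23.8 and 8.24 in WT and 21.5 and 17.1 in Fam5snv/snv, and the genotypes overlapped. Without WT replicate 1 edgeR gave log2 fold changes of 2.76 and 1.52, with adjusted p = 0.00189 for the nearer and 0.0300 for the farther region. Without WT replicate 2 they were 1.96 (adjusted p = 0.00147) for the nearer and 0.73 (0.151) for the farther region. Without Fam5snv/snv replicate 1 or 2 no region was called, and DESeq2 gave adjusted p = 0.158 for the farther region. In the regions called in the 3 libraries other than WT replicate 1, the adjusted p was 0.0419 for the nearer and 0.0857 for the farther region.

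Of the 17 regions in the Nkx6-2 window 9 lie inside Inpp5a, and summed over them the signal was 22.8 and 13.4 CPM in WT and 64.9 and 73.3 in Fam5snv/snv. The other 8, with the promoter, summed to 101 and 113 in WT and 110 and 115 in Fam5snv/snv. This split was made after the values were seen and was not tested. A region farther inside Inpp5a (chr7:139562431-139563865), without a peak in WT replicate 1, had 1 cut site in WT replicate 2 and 59 and 98 in the Fam5snv/snv libraries, and it was named after its values were seen. The promoter region of Inpp5a had 160 and 126 in WT and 119 and 103 in Fam5snv/snv. Over the whole Nkx6-2 window the log2 fold change was 0.55 (SE 0.15, interval 0.17 to 0.92, unadjusted p = 0.0126, edgeR adjusted p = 0.758).

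The window sums of the 10 genes gave 0 calls at an adjusted p under 0.05 (edgeR, 0% of 17981 genes), 1 gene higher at an unadjusted p, Nkx6-2, against 4.50% of all genes, and 0 lower, against 1.67%. DESeq2 called 391 genes over all windows, Nkx6-2 among them (log2 fold change 0.54, adjusted p = 0.0257). The median over the 10 windows was 0.37 and over all genes 0.01. In the Nkx2-2 window the log2 fold change was −0.24 (SE 0.16, interval −0.63 to 0.15), and it was the single member window below 0. Leaving out WT replicate 2 left 1 WT library. The log2 fold changes were then 1.24 at Foxa2, 1.27 at Pax6, 1.15 at Olig2, 1.93 at Olig1 and 3.69 at Dbx1. At Dbx2 the WT library left had no cut site. Leaving out WT replicate 1 instead gave −0.14 at Foxa2, −0.17 at Pax6, −0.13 at Olig2, −0.14 at Olig1 and 0.039 at Dbx1. Each of these fits assumes that the lone WT library varies like the Fam5snv/snv libraries. Nkx6-1 had 0.03 (SE 0.14, interval −0.32 to 0.39) and Nkx2-9 0.13 (SE 0.20, interval −0.37 to 0.63).

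Outside promoters, the tested region of highest signal at each gene gave the following values. A region 6602 bp upstream of the nearest protein-coding start site of Nkx2-2 (chr2:147193006-147195892) overlaps the annotated gene body of Nkx2-2 and Nkx2-2os. It had 37.8 and 34.5 in WT and 24.1 and 26.7 in Fam5snv/snv. Both Fam5snv/snv libraries were below both WT libraries there (log2 fold change −0.51, SE 0.24, edgeR adjusted p = 0.589), as they were at the Nkx2-2 promoter region. The −0.23 of that promoter region lay near the median of all promoter regions, −0.21. A region 1711 bp upstream of Olig2 (chr16:91222066-91223746) had 14.4 and 19.3 in WT and 13.8 and 12.3 in Fam5snv/snv, the last of the 3 regions in which the Fam5snv/snv values lay below. With a log2 fold change of −0.37 (SE 0.37) it did not pass either threshold.

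At Foxa2, a region 21256 bp downstream (chr2:148019547-148024692) had 19.6 and 28.1 in WT and 37.05 and 29.97 in Fam5snv/snv, and at Dbx1 a region 18809 bp downstream (chr7:49615092-49618040) had 2.80 and 10.2 in WT and 12.7 and 17.3 in Fam5snv/snv. In both, the Fam5snv/snv values lay above the WT values. The log2 fold changes were 0.49 (SE 0.29) and 1.21 (SE 0.63), neither past a threshold. Called peaks of the Foxa2 region measured 896 and 2802 bp in WT and 5142 and 4562 bp in Fam5snv/snv. Those of the Dbx1 region measured 213 and 1052 bp in WT and 2053 and 2949 bp in Fam5snv/snv. More DNA was thus counted in Fam5snv/snv at both, and its part in the fold changes was not tested. The Dbx1 region had a log2 fold change of 0.55 without WT replicate 1 and 2.41 without WT replicate 2. Upstream of Nkx2-9 (chr12:56632863-56634731, 19579 bp away) the values were 28.4 and 21.5 in WT and 21.3 and 23.0 in Fam5snv/snv. Downstream of Nkx6-1 (chr5:101645576-101650367) they were 33.3 and 25.3 in WT and 26.9 and 34.1 in Fam5snv/snv, and in the Pax6 gene body (chr2:105686971-105690764, without an exon) 7.71 and 20.8 in WT and 19.5 and 20.7 in Fam5snv/snv. The genotypes overlapped at these last 3, and the Pax6 region had −0.050 without WT replicate 1 (edgeR adjusted p = 0.955) and 1.38 without WT replicate 2 (0.0259).

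The length of the called peaks moved with the fold change. In all 25 tested regions the mean called length was longer in Fam5snv/snv than in WT, with a median log2 ratio of 0.79 (0.70 over all tested regions) and a range from 0.14 to 3.25. Across these regions, which share the 4 libraries, the fold change and the length ratio had Spearman's rho = 0.715, and across all tested regions 0.797. What part of the fold changes follows from peak length was not tested. When regions were kept only where each library's peaks cover at least 50%, 2 member regions remained, with a median log2 fold change of −0.03.

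**Figure D4:**
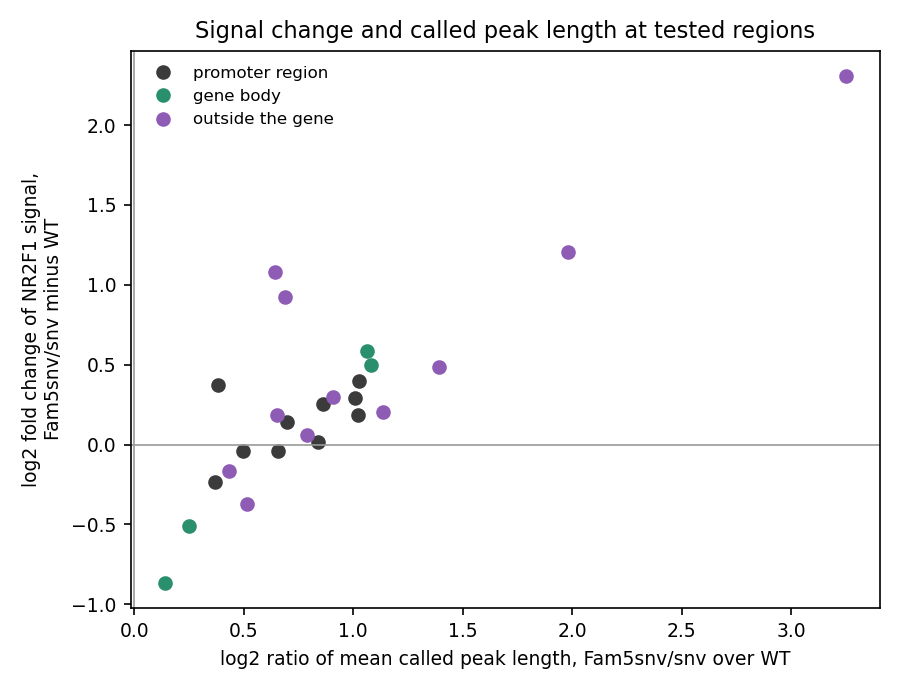
Log2 fold change of NR2F1 signal at the 25 tested regions against the log2 ratio of mean called peak length, both Fam5snv/snv against WT, coloured by position. All points lie to the right of 0, and the region downstream of Nkx6-2 at 3.25 on the horizontal axis has the largest fold change, 2.31.

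Per barcode, signal at these genes was sparse. To compare depths, 567 cut sites were drawn per barcode (percentile 25 of barcodes in WT replicate 1), which left out 641 barcodes of that library and 0 of the others. After thinning, 23.8% and 31.1% of WT barcodes and 32.6% and 29.2% of Fam5snv/snv barcodes had a cut site at 1 or more of the 10 genes, against 29.3% and 56.9% in WT and 68.0% and 66.7% in Fam5snv/snv before thinning. From 2.28% to 6.10% of thinned barcodes had a cut site at 2 or more of the genes. Nkx6-1 had the highest share in all libraries but WT replicate 2, where Pax6 equalled it. The Nkx6-1 share was 7.25% and 7.41% in the WT libraries, against 8.88% and 7.85% in Fam5snv/snv, and the exact 95% intervals overlapped.

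For Nkx6-2 the thinned shares were 4.82% (interval 3.91% to 5.87%) and 4.07% (3.09% to 5.25%) in WT and 6.42% (5.45% to 7.51%) and 6.46% (5.57% to 7.44%) in Fam5snv/snv. Both Fam5snv/snv shares were above both WT shares, although the interval of WT replicate 1 overlapped those of both. Thinning evened the depth but not the called length. Called peaks in the Nkx6-2 window measured 5072 and 11280 bp in WT and 17987 and 22779 bp in Fam5snv/snv. What part of the shares follows from that length was not tested. Nkx2-2 had 5.75% and 5.16% in WT and 5.06% and 4.53% in Fam5snv/snv. Pax6 had 2.49% and 7.41% in WT and 5.72% and 4.16% in Fam5snv/snv, so that the WT shares bracketed the others. Dbx2 had 0 of 1931 barcodes in WT replicate 1, within a peak of 57 bp. A count of 0 allows a share of up to 0.155% by the limit of 3 counts and 0.191% by the exact interval, and Dbx2 had at most 0.290% in the other libraries. These intervals cover counting error only, and barcodes are not replicates of a genotype.

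**Figure D5:**
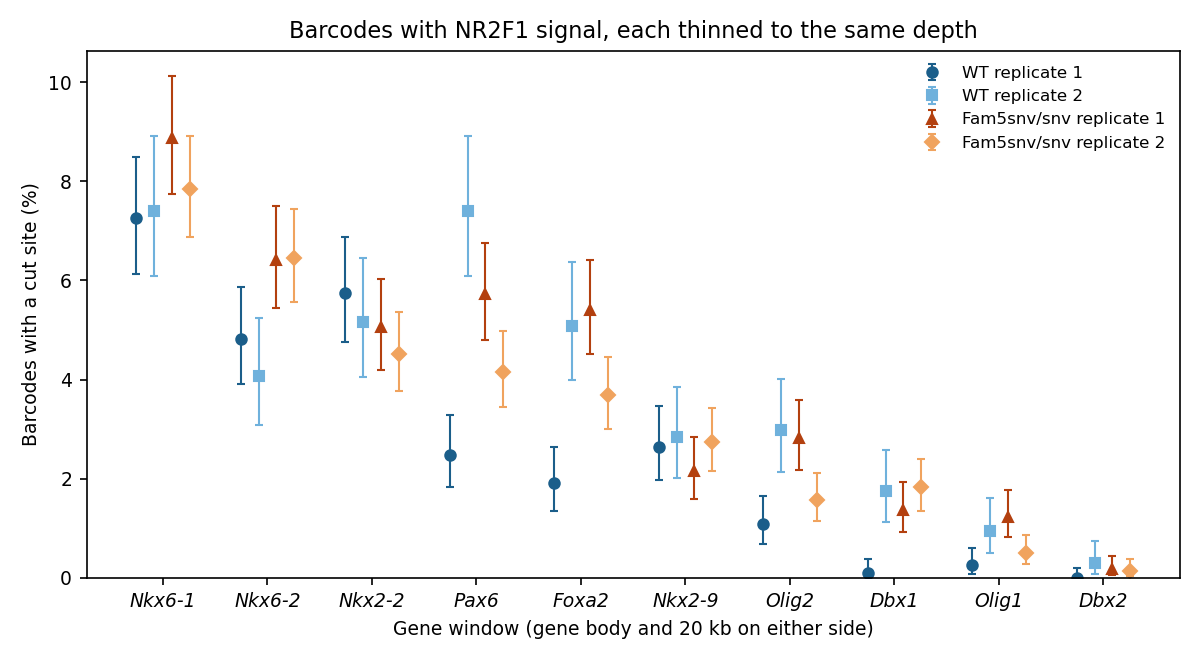
Percent of barcodes with at least 1 cut site in each gene window after thinning every barcode to 567 cut sites, by library, with exact 95% binomial intervals that cover counting error only. Nkx6-1 is highest in 3 of the 4 libraries, and WT replicate 1 is below the others at Pax6, Foxa2 and Dbx1. The length of called peaks differs between libraries and is not evened by thinning.

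Related genes were described by their promoter regions for comparison, and none of them was called at an adjusted p under 0.05. Of 12 Sonic hedgehog pathway genes, all tested, 0 were higher and 3 lower in Fam5snv/snv at an unadjusted p under 0.05, where 1.54% of all 12647 tested promoter regions were higher and 6.70% lower. The promoter regions of the 9 tested members, 1 per gene, had a median log2 fold change of 0.14. Of these, Foxa2, Pax6, Nkx2-9, Olig1 and Dbx2 turned direction without WT replicate 1. The median of the pathway genes was −0.28, against −0.21 over all promoter regions. The 3 were Boc, a coreceptor of Sonic hedgehog (log2 fold change −1.08, SE 0.41), Gli1, a transcriptional target and effector of the pathway (−0.57, SE 0.23), and Sufu, an inhibitor of GLI factors (−0.54, SE 0.22). Sufu was named after its value was seen. Gli1 had 75.0 and 53.5 CPM in WT and 42.0 and 44.5 in Fam5snv/snv. Of 11 dorsal progenitor factors, such as Atoh1 and Ptf1a, 5 were tested and 0 passed the unadjusted threshold. Of 16 factors of neurons born from the ventral domains 11 were tested and 1 was lower (against the same 6.70%), Gata2 (75.3 and 76.3 in WT, 45.25 and 58.04 in Fam5snv/snv, log2 fold change −0.55, SE 0.21). Of 11 general neural progenitor genes 10 were tested and 0 passed.

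Markers of other cells that an opened gate could admit also carried signal. Of 5 endothelial genes 2 promoter regions were tested, and both were higher in Fam5snv/snv at an unadjusted p under 0.05 (1.54% of all promoter regions), Erg with 24.5 and 23.9 in WT and 50.6 and 48.2 in Fam5snv/snv and Sox18 with 65.2 and 53.5 in WT and 88.6 and 88.1 in Fam5snv/snv. Their summed level was 77.4 to 89.7 in WT and 136 to 139 in Fam5snv/snv, while Cdh5, Kdr and Pecam1 had no tested promoter region. Of 5 neural crest and mesenchyme genes, all tested, 1 was lower (Prrx1, against 6.70% of all promoter regions), and their sum was 83.0 to 141 in WT and 87.4 to 105 in Fam5snv/snv. Of 5 blood genes 3 were tested and 0 passed, with sums of 64.5 to 82.7 in WT and 71.6 to 83.0 in Fam5snv/snv. The endothelial values moved in the same direction as the regions downstream of Nkx6-2, and their part in that result was not tested.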

How the data were processed

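For each library the authors deposited counts (whole numbers of cut sites, by peak and barcode) with the peak positions. Cell Ranger ATAC and the build mm10 are named in the submitters' processing notes, and the matrix headers give software version 1.2.0. The study's methods name another version of Cell Ranger ATAC, and which of them called the peaks is not settled. Peaks carry no score and counts no position within a peak. Apart from the thinning of barcodes no cells were filtered, named or clustered, and no doublet caller was run.

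Counts were summed over barcodes, peaks were merged (1 bp overlap), and a region was tested where every library had a peak and 2 or more libraries had 10 or more cut sites. The test of Fam5snv/snv minus WT was edgeR's quasi-likelihood test (version 4.0.16, R 4.3.3) without a block, with TMM scaling and Benjamini-Hochberg adjustment at 0.05, on 2 residual degrees of freedom (common biological coefficient of variation 0.305). The p-values measure only the spread between these libraries. CPM of regions uses TMM-scaled totals of tested regions. CPM of gene windows uses TMM-scaled totals over all tested gene windows, where a region near several genes counts for each of them. Region and window CPM are therefore not on the same scale. The median count of a tested region was 42 to 47 in WT and 126 to 139 in Fam5snv/snv.

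Annotation was GENCODE M21. A promoter region is the tested region overlapping 1 kb around a protein-coding start with the most cut sites. Named were all members, the promoter region and the strongest other tested region of each, and regions at an unadjusted p under 0.05. From the other lists the 2 genes of smallest p were eligible, and 1 marker gene is not reported here. The members and lists were chosen with earlier results of these data known. The scripts were tested on simulated data. DESeq2 1.42.0, other filters, scalings, merging and omitted libraries were the alternatives.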

Additional observations from a re-analysis of the deposited data

How the results depend on the processing

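The adjusted calls of member regions stayed at 0 with DESeq2's size factors in edgeR, with other minimum counts, with the replicate block, with scaling by barcodes, with peaks within 500 bp merged and with windows of 5 kb. DESeq2's own test called 560 regions, 1 of them a member region (2 of 25 member regions were higher and 1 lower at its unadjusted p). Leaving out 1 library gave 0 to 6315 called regions over all regions, 0 to 8 called member regions, 1 to 13 member regions at an unadjusted p under 0.05, and a median log2 fold change of the member regions from −0.10 to 0.71, with the extremes without WT replicates 1 and 2, where the lone WT library is assumed to vary like the Fam5snv/snv libraries. Without WT replicate 1, with the 47 member regions called in the other 3 libraries (an alternative chosen after seeing the data), the median was −0.23, 102 regions and 1 member region were called, and 8 were at an unadjusted p under 0.05. With no peak needed in each library, also chosen after seeing the data, 50 member regions were tested. At an unadjusted p under 0.05, 7 of them were higher and 1 lower in Fam5snv/snv. The median log2 fold change of these 50 was 0.36, below the 0.61 over all 82062 regions, and 32 of the 50 lay below that median. With windows of 5 kb 1 of 18 was higher at that p. With at least 50% coverage 0 of 2 passed, while 18 regions of all were called. Scaled by barcodes, 6 of 25 were higher, with a member median of 1.03 beside 0.97 over all regions. The share of all regions at that p is not given for any of these alternatives, so the member counts cannot be set against it. The cause of these shifts was not tested.

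Log2 fold changes that turned direction when 1 library was left out ranged, at promoter regions, from −0.61 to 7.74 (Dbx2, where WT replicate 1 has no cut site, so that the upper value is not a bound), −0.45 to 1.84 (Foxa2), −0.097 to 0.71 (Nkx2-9), −0.34 to 1.19 (Olig1), −0.47 to 0.56 (Olig2), −0.11 to 0.44 (Pax6), −0.099 to 0.0062 (Nkx6-1) and −0.031 to 0.055 (Nkx6-2), and at other regions from −0.36 to 0.040 (upstream of Nkx2-9), −0.12 to 0.26 (downstream of Nkx6-1) and −0.050 to 1.38 (Pax6). For gene windows the ranges were −0.93 to 7.73 (Dbx2), −0.14 to 1.24 (Foxa2), −0.14 to 1.93 (Olig1), −0.13 to 1.15 (Olig2), −0.17 to 1.27 (Pax6) and −0.0037 to 0.068 (Nkx6-1). Over the regions called in the other 3 libraries without WT replicate 1, the values were −0.61 (Dbx2), −0.45 (Foxa2), −0.10 (Nkx2-9), −0.15 (Olig1) and −0.11 (Pax6) at promoter regions, 0.037 upstream of Nkx2-9 and −0.053 in Pax6. Scaled by barcodes, which moves the median of all regions to 0.97, the direction turned to 0.72 (Nkx2-2), 0.89 (Nkx6-1) and 0.78 (Olig2) at promoter regions, to 0.53, 0.46 and 0.84 at the upstream regions of Olig2, Nkx2-2 and Nkx2-9, and to 0.70 in the Nkx2-2 window. With at least 50% coverage the upstream Nkx2-9 region had 0.14.

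The replicate numbers shared by WT and Fam5snv/snv libraries mark no common litter or day in the labels, and same-numbered libraries did not deviate together (r = 0.032 across regions). With the replicate block the member median was 0.29, beside 0.059 over all tested regions, and 0 regions were called. At an unadjusted p under 0.05 there were 2 member regions. The share of all regions at that p is not given for this setting, so that count cannot be set against it. The Olig2 promoter region turned to 0.034. The need for a peak in each library, with 25 member regions called in WT replicate 1 and 73 in WT replicate 2, limits what could be tested.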
